A study of Mus musculus with 30 samples.

Results

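Genes of retinoic acid synthesis, binding, sensing and breakdown were followed in the germ cells of mouse embryos, known as primordial germ cells, from which eggs and sperm derive. They are Aldh1a1, Aldh1a2 and Aldh1a3, which make retinoic acid, Dhrs3, whose enzyme acts against its synthesis, the binding proteins Crabp1 and Crabp2, the receptors Rara, Rarb and Rarg, and the degrading enzyme Cyp26b1. The members were chosen by gene symbol in the probe annotation, 10 of the 19937 genes measured, and each had 1 probe set. Expression was read on Affymetrix arrays, 30 in all, as log2 signals that the authors had already normalized, in a series on how Polycomb repressive complex 1 (PRC1) times germ cell differentiation. RNA of 500 germ cells per sample was used, and it was amplified by whole-transcriptome PCR before labelling.

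The mutant genotype, Ring1+;Rnf2delta (Rnf2delta here), was sampled at embryonic days E11.5 and E12.5 in both sexes. The control genotype, Ring1+;Rnf2+, was sampled at E11.5, E12.5 and E13.5 in both sexes, so that E13.5 has controls only. Each of the 10 groups has 3 arrays. All embryos, controls included, carried the Oct4(deltaPE)-GFP transgene, a germ cell reporter, on a mixed 129/Sv and C57BL6J background, and the GFP-positive cells of trypsin-treated gonads were collected by FACS. Rnf2 encodes a ubiquitin ligase of PRC1, and for its paralogue Ring1 both genotypes are labelled Ring1+. The labels do not say by which driver, in which cells or when Rnf2 was deleted, nor whether arrays within a group represent different embryos or litters. The p-values therefore measure the spread between these arrays, which may be technical.

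Retinoic acid is made from vitamin A: retinol dehydrogenases form retinaldehyde, which DHRS3 can turn back to retinol, and the ALDH1A enzymes oxidize it to retinoic acid. Inside the cell CRABP1 and CRABP2 bind retinoic acid, receptors of the RAR family paired with RXRs switch on target genes when they hold it, and CYP26 enzymes degrade it. In the fetal gonad retinoic acid is known for its part in the meiotic entry of female germ cells, with Stra8 as its best known target there, and CYP26B1 of testis somatic cells for keeping it low in males. PRC1 is known for holding developmental genes silent.

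Promoters of some of the members are shown first, from RefSeq (GRCm38.p6), each running from 250 bases before to 50 bases after the annotated start. RefSeq windows were found for 8 of the 10 members, 15 windows in all. Crabp2 and Aldh1a3 had no window, so their promoters were neither shown nor searched. Aldh1a2 and Crabp1 are shown because they were higher in Rnf2delta cells and because CG-rich promoters are a known class of Polycomb targets; capitals mark CG dinucleotides. Rarb is shown because it was the only member whose windows matched the response element searched, and capitals mark the repeat units.
Aldh1a2, chr9:71215539-71215838, plus strand: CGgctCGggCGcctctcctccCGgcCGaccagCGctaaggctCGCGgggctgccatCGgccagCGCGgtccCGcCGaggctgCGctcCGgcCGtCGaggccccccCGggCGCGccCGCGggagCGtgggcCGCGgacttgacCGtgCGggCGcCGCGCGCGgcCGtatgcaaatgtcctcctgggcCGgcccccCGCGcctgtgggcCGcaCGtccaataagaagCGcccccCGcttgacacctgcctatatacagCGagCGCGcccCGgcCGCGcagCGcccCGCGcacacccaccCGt
Crabp1, chr9:54764498-54764797, plus strand: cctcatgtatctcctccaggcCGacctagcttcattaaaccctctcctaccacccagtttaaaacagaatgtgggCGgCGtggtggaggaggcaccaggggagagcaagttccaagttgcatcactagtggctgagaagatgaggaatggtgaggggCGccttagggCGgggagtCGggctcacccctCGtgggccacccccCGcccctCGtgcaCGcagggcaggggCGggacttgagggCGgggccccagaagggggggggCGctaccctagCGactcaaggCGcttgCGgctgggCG
Rarb, chr14:16575427-16575726, minus strand: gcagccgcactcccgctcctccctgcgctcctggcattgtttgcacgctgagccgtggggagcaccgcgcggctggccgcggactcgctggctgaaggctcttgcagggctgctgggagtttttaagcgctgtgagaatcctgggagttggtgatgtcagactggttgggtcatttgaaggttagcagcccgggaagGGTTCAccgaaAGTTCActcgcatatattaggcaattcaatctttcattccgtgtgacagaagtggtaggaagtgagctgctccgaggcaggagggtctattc

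The Aldh1a2 window held 50 CG dinucleotides, and 0.855% of the 32851 RefSeq mouse promoter windows held as many. The Crabp1 window held 17, and 31.4% of the windows held as many, with a median of 7 over all windows. Among members without a genotype call, the Rarb window also held 17, and windows of Rara and Dhrs3 held up to 21. Those of Cyp26b1, Rarg and Aldh1a1 held 1 to 12. A link between CG content and the genotype difference was not tested. Retinoic acid response elements were searched on both strands as direct repeats, each unit being AGGTCA or AGTTCA or GGTTCA or GGGTCA. With 5 bases between the units, 32 windows matched (0.0974%). One of them was that of Rarb, which held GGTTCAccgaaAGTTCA on the strand of the gene, starting 53 bases before its start. With 2 bases between the units 88 windows matched (0.268%), and with 1 base 73 (0.222%), none of them among the member windows searched. A match is a run of letters and does not show binding, and the arrays carry no measure of binding or of histone marks.

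The germ cell identity of the arrays and the genotype were checked first. All 12 germ cell markers lay above the array median on average in each group, with a list mean between 6.98 and 7.46 on every array. Of 42 markers of other cell types, 0 were higher in Rnf2delta in any of the 4 genotype comparisons (limma; 1 to 4 at an unadjusted p below 0.05, and 0 with equal weights; at E11.5 in males Lhx1 and Pecam1 were lower, at E12.5 in males Pecam1). Of all genes tested, 0.922% to 1.65% were called higher in these 4 comparisons (adjusted p below 0.05). At so low a share, a count of 0 among 42 markers does not show that other cells were equally rare in both genotypes. Averaged over the 4, Dlk1 was higher and Lhx1 and Pecam1 were lower. The Rnf2 probe set was lower in all 4 Rnf2delta groups, by 0.64 ± 0.098 on average (log2, SE, adjusted p = 3.54e-05). It passed the test alone in E12.5 males (-1.03 ± 0.18, SE, adjusted p = 0.00122), and in E11.5 males the arrays of the genotypes overlapped. The labels do not give the deleted exons, so residual Rnf2 signal cannot be interpreted further. The 6 E12.5 female arrays varied more within their groups (correlations of 0.964 to 0.978, against 0.983 to 0.990 elsewhere), and the fit gave them less weight. In bulk samples, fewer cells expressing a gene and less of its RNA per cell cannot be told apart.

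Aldh1a2, Crabp1 and Crabp2 changed with genotype, and the other 7 members did not pass the test in any genotype comparison. Averaged over the 4 pairs of groups, Crabp1 was 1.46 ± 0.12 higher in Rnf2delta (log2, SE, 2.74-fold, adjusted p = 2.35e-09), Crabp2 1.44 ± 0.15 higher (2.71-fold, adjusted p = 9.25e-08) and Aldh1a2 1.13 ± 0.13 higher (2.19-fold, adjusted p = 6.05e-07). These were 3 members of 10 higher and 0 lower, where 7.46% of the 15180 genes tested were called higher and 1.8% lower. The median difference over the members was 0.062, against 0.012 over all genes tested. Taken stage by stage, 3 members were called in E11.5 females, 3 in E11.5 males, 1 in E12.5 females and 2 in E12.5 males. The shares of all genes called higher were 0.922% in E11.5 females, 1.65% in E11.5 males, 1.35% in E12.5 females and 1.02% in E12.5 males. A call is an adjusted p below 0.05. No member was lower in these 4 comparisons (limma, 0 also at an unadjusted p below 0.05), where 0.0856%, 0.362%, 0.198% and 0.145% of genes were called lower, in the same order. Every Rnf2delta array lay above every control array for 3, 3, 2 and 5 members, again in that order, against 9.71%, 8.74%, 11.9% and 8.64% of all genes.

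**Figure D1:**
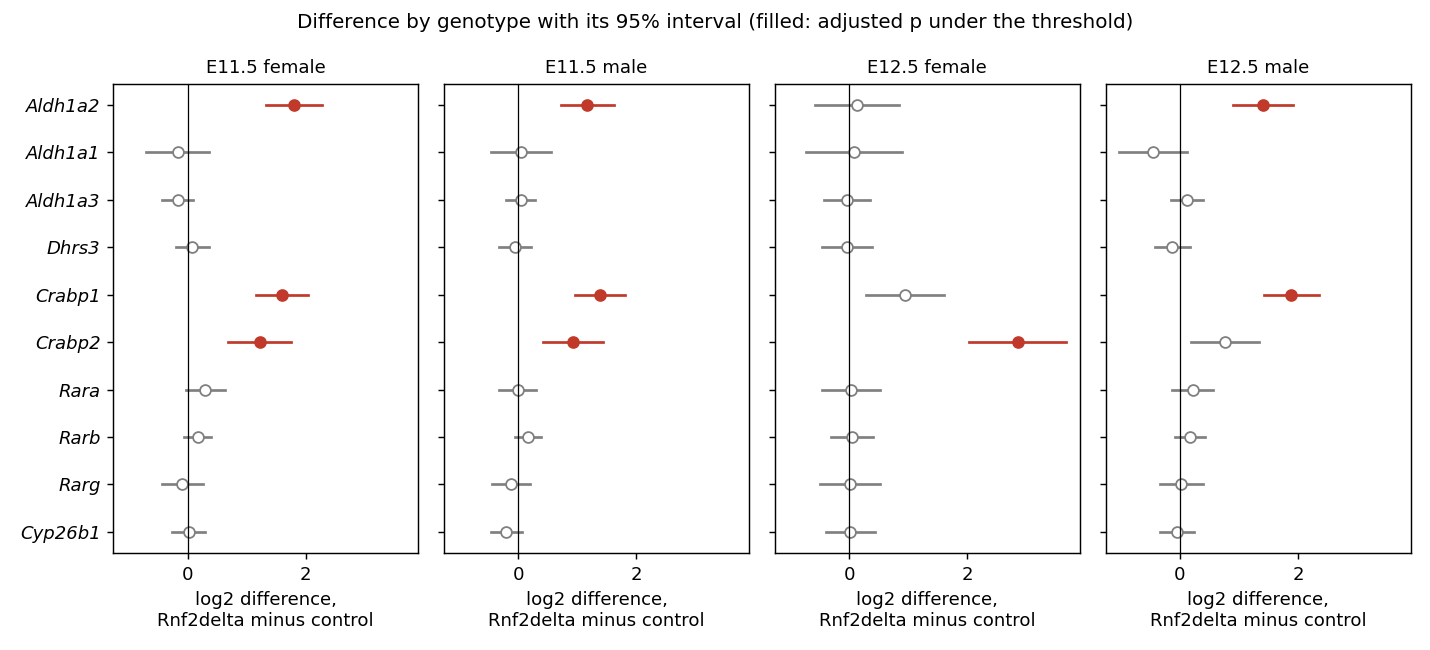
Log2 difference, Rnf2delta minus control, for the 10 members in each sex and stage, with the 95% interval of the limma fit; filled points passed the adjusted threshold. Aldh1a2, Crabp1 and Crabp2 hold all the filled points, and Aldh1a2 in E12.5 females sits near 0 at 0.13.

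Aldh1a2 (probe set 10586865) encodes the enzyme that makes most of the retinoic acid of the embryo. In E11.5 females it was 4.67, 4.84 and 4.77 on the Rnf2delta arrays, against 2.77, 2.88 and 3.24 on the control arrays. Every Rnf2delta array lay above every control array, by 1.80 ± 0.23 on average (log2, SE, 3.48-fold, adjusted p = 2.44e-05), the third largest rise of all genes tested in that comparison. In E11.5 males it was 4.59, 3.65 and 4.23 in Rnf2delta, against 2.98, 2.84 and 3.14 in controls. The groups did not overlap there either, and the difference was 1.17 ± 0.22 (2.25-fold, adjusted p = 0.00221).

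In E12.5 males Aldh1a2 was 4.68, 4.26 and 3.68 in Rnf2delta, against 3.13, 2.89 and 2.37 in controls, a difference of 1.41 ± 0.25 (2.65-fold, adjusted p = 0.00118). Without Rnf2delta replicate 1 the difference was 1.17 and the call was lost (adjusted p = 0.0662). In E12.5 females the levels were 3.43, 3.30 and 3.15 in Rnf2delta, against 3.79, 2.95 and 2.73 in controls. There the groups overlapped, with a difference of 0.13 and a 95% interval from -0.58 to 0.85 (adjusted p = 0.93). Aldh1a2 thus stood in an upper set of 3 Rnf2delta groups with means of 4.76, 4.21 and 4.16, whose arrays all lay above those of the fourth in order, E12.5 female Rnf2delta at 3.29. One control array reached into that upper set, E12.5 female replicate 1 at 3.79. The remaining groups ran from there to 2.77 in E13.5 females, and each neighbour in that order overlapped the next.

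Between stages, Aldh1a2 fell in Rnf2delta females: E12.5 was 1.47 lower than E11.5 on the log2 scale (-1.47 ± 0.28, SE, adjusted p = 0.00044), with no overlap between the arrays. In that comparison 9.82% of genes were called lower. In control females the same stages differed by 0.19 (95% interval from -0.45 to 0.84, adjusted p = 0.78), and 0 members were called, where 10.2% of genes were. In Rnf2delta males they differed by 0.048 (95% interval from -0.46 to 0.55), with 0 members called, where 0.731% of genes were. In limma, neither comparison had a member at an unadjusted p below 0.05. In Rnf2delta cells at E12.5, females stood below males (-0.91 ± 0.30, adjusted p = 0.046), in a comparison where 6.13% of genes were called lower. That call held in 7 of 14 alternatives. It was lost without male replicate 1 (-0.68, adjusted p = 0.265), male replicate 2 (0.133) or female replicate 1 (0.081), 2 (0.138) or 3 (0.124).

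Crabp1 (probe set 10585438), a cytosolic protein known for binding retinoic acid and handing it to CYP26 enzymes, had high signal throughout, above the 79.6th percentile of every array. In E11.5 females it was 7.88, 8.04 and 8.12 in Rnf2delta, against 6.27, 6.27 and 6.69 in controls, a difference of 1.61 ± 0.21 (3.04-fold, adjusted p = 4.02e-05). In E11.5 males it was 7.74, 7.82 and 7.24 in Rnf2delta, against 6.38, 5.99 and 6.29 in controls, a difference of 1.38 ± 0.21 (2.60-fold, adjusted p = 0.000142). The genotypes did not overlap in either sex.

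In E12.5 males Crabp1 was 7.43, 7.30 and 7.33 in Rnf2delta, against 5.59, 6.02 and 4.79 in controls. This was its widest gap between genotypes, 1.89 ± 0.23 (3.70-fold, adjusted p = 1.04e-05), and control replicate 3 was the lowest of its 30 arrays. In E12.5 females it was 7.89, 7.65 and 7.74 in Rnf2delta, against 7.05, 6.99 and 6.40 in controls. The arrays did not overlap, but the difference of 0.95 (95% interval from 0.28 to 1.61) did not pass the test (adjusted p = 0.159). With equal weights for all arrays it did (adjusted p = 0.00774).

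In order of the group means, Crabp1 was highest in E11.5 female Rnf2delta at 8.02, then E12.5 female Rnf2delta at 7.76, E11.5 male Rnf2delta at 7.60, E13.5 female controls at 7.37 and E12.5 male Rnf2delta at 7.35. These 5 overlapped their neighbours, and a gap separated them from E12.5 female controls at 6.81, E11.5 female controls at 6.41 and E11.5 male controls at 6.22. E13.5 and E12.5 male controls had the lowest means, at 5.55 and 5.47. The E13.5 male arrays all lay below those of E11.5 males, narrowly (at most 5.98, against at least 5.99). The E12.5 male arrays overlapped those of E11.5 males, with replicate 2 at 6.02. The 4 Rnf2delta groups and the E13.5 female controls thus formed the upper set.

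**Figure D2:**
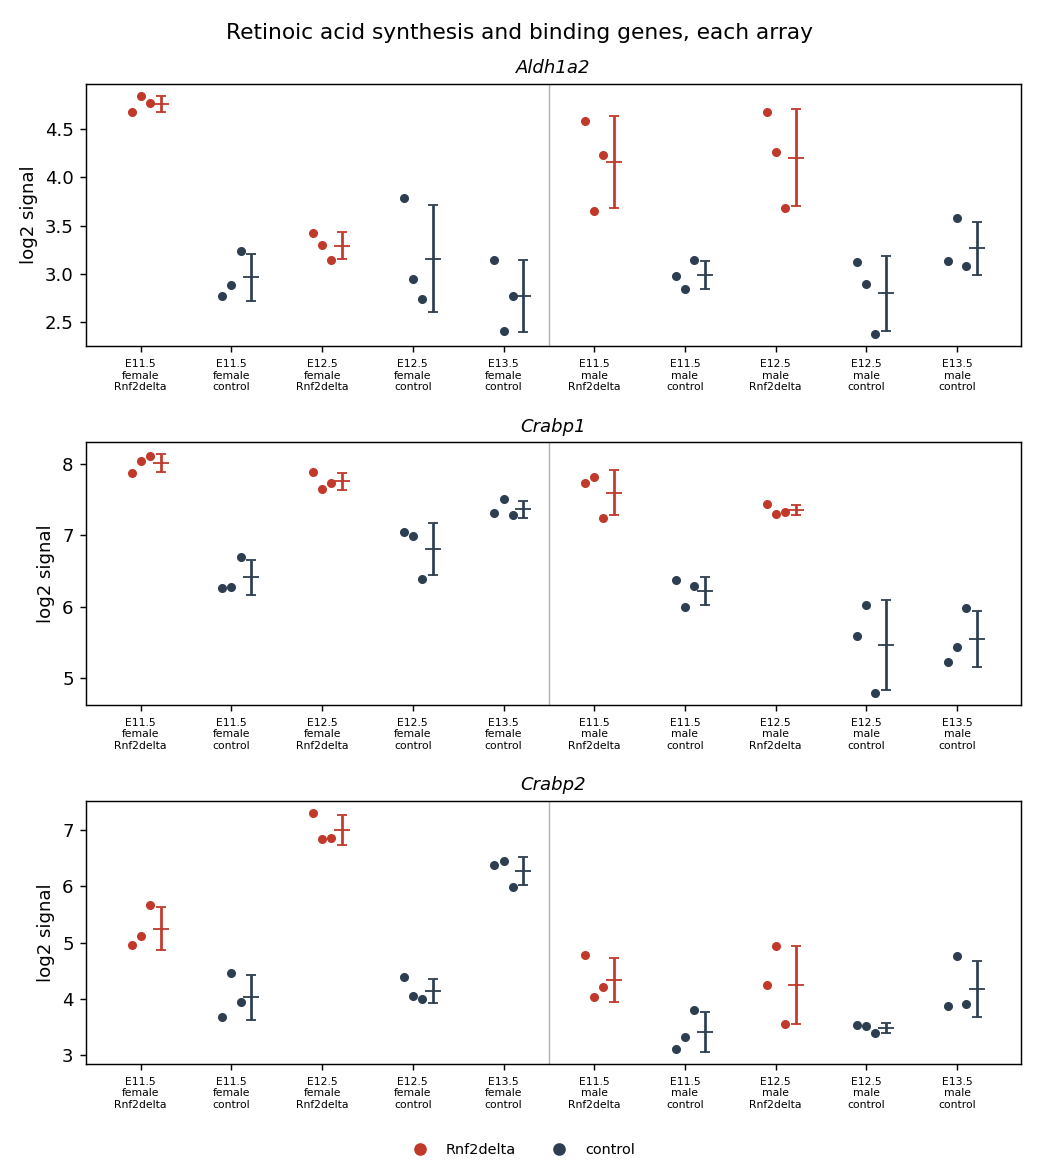
Log2 signal of Aldh1a2, Crabp1 and Crabp2 on each of the 30 arrays (points), with the group mean and SD beside them, females left and males right, Rnf2delta in red and controls in dark blue. Crabp2 reaches about 7 in E12.5 female Rnf2delta and 6.27 in E13.5 female controls, and Aldh1a2 is high in 3 of the 4 Rnf2delta groups.

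Crabp2 (probe set 10493108) encodes the binding protein known for carrying retinoic acid to its receptors in the nucleus. In E12.5 females it was 7.30, 6.83 and 6.86 in Rnf2delta, against 4.38, 4.04 and 4.0 in controls. The lowest Rnf2delta array was more than 2 log2 units above the highest control array. The difference of 2.85 ± 0.40 (7.23-fold, adjusted p = 0.00015) was the third largest rise in that comparison, and it kept its call in all 15 alternatives.

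In E11.5 females Crabp2 was 4.96, 5.11 and 5.67 in Rnf2delta, against 3.68, 4.46 and 3.95 in controls, a difference of 1.22 ± 0.26 (2.33-fold, adjusted p = 0.0148). The groups did not overlap, but the call was lost without control replicate 1 (adjusted p = 0.121), control replicate 3 (0.0555) or Rnf2delta replicate 3 (0.0933). In E11.5 males it was 4.78, 4.03 and 4.20 in Rnf2delta, against 3.11, 3.32 and 3.81 in controls. That difference, 0.93 ± 0.25 (1.90-fold), was at the threshold (adjusted p = 0.0491), and 6 of 16 alternatives called it, with adjusted p from 0.0409 to 0.293. It was lost without Rnf2delta replicate 1 (0.293), control replicate 1 (0.17), control replicate 2 (0.148) or Rnf2delta replicate 3 (0.106).

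In E12.5 males Crabp2 was 4.24, 4.94 and 3.55 in Rnf2delta, against 3.54, 3.52 and 3.39 in controls. All Rnf2delta arrays were above all control arrays, with the nearest pair at 3.55 and 3.54, and the difference of 0.76 (95% interval from 0.18 to 1.34) did not pass the test (adjusted p = 0.288). On Rnf2delta replicate 3, its lowest array, the embryonic globin gene Hbb-y was 9.71, against 1.85 and 1.88 on the other 2, and the part of red blood cell RNA in these values was not tested. Aldh1a2 was lowest of its group on the same array. Without that array the genotype difference was 1.11 for Crabp2 (adjusted p = 0.0214), 1.67 for Aldh1a2 (adjusted p = 9e-05) and 1.90 for Crabp1 (adjusted p = 1.24e-05).

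The order of the Crabp2 group means began with E12.5 female Rnf2delta at 6.99, E13.5 female controls at 6.27 and E11.5 female Rnf2delta at 5.25, each clear of the next. E11.5 and E12.5 male Rnf2delta, E13.5 male controls and E12.5 and E11.5 female controls followed between 4.34 and 4.03, with overlapping arrays. The E12.5 and E11.5 male controls were lowest, at 3.48 and 3.41. In normal females Crabp2 rose between E12.5 and E13.5: it was 6.37, 6.45 and 5.98 at E13.5, against 4.38, 4.04 and 4.0 at E12.5, a difference of 2.13 ± 0.35 (4.37-fold, adjusted p = 0.000154), where 11.4% of genes were called higher. In Rnf2delta females it was 1.75 ± 0.32 higher at E12.5 than at E11.5 (3.35-fold, adjusted p = 0.000302), where 5.97% of genes were called higher. In control females E12.5 and E11.5 differed by 0.11 (95% interval from -0.63 to 0.85, adjusted p = 0.90).

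Stra8, the meiotic entry gene, and Rec8, a meiotic cohesin that retinoic acid is known to raise, are given beside Crabp2. In E12.5 females Stra8 was 6.50, 5.66 and 4.60 in Rnf2delta, against 3.61, 2.71 and 2.07 in controls, a difference of 2.79 ± 0.45 (adjusted p = 0.000686). Rec8 was 6.35, 5.69 and 5.48 in Rnf2delta, against 5.02, 4.43 and 3.36 in controls, a difference of 1.57 ± 0.30 (adjusted p = 0.00567). In both genes the genotypes were separate at E12.5 in females. In E11.5 females Crabp2 was called higher in Rnf2delta, a call that depended on single arrays. There Stra8 was 2.32, 2.37 and 1.85 in Rnf2delta, against 2.19, 2.22 and 1.92 in controls, with overlap and a difference of 0.068 (adjusted p = 0.983). Rec8 was 3.80, 3.88 and 3.86 on the same Rnf2delta arrays, against 3.30, 3.12 and 3.33 in controls. Its genotypes did not overlap, and it was not called (limma, unadjusted p below 0.05). In males Stra8 stayed between 1.95 and 2.40 on all 15 arrays.

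**Figure D3:**
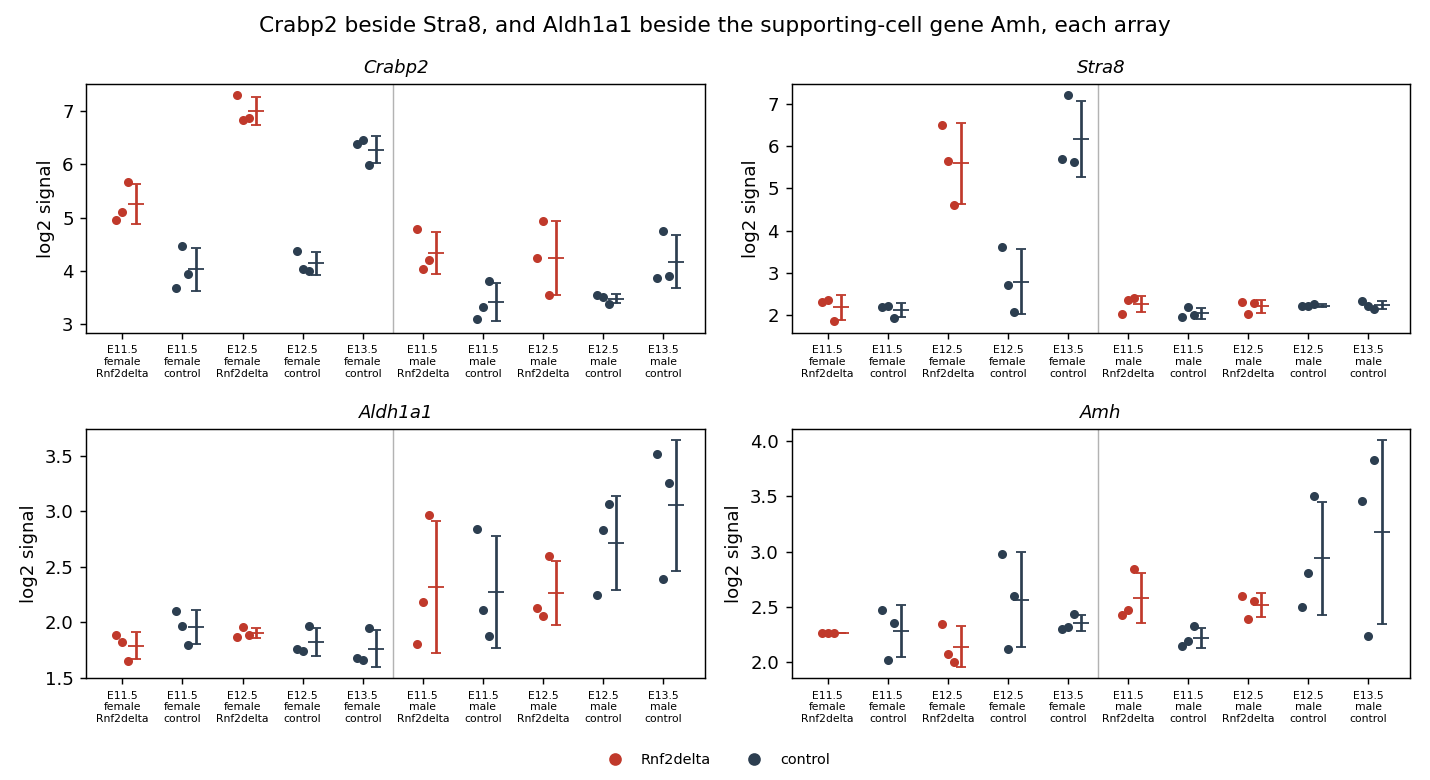
Log2 signal on each array with group mean and SD: Crabp2 beside Stra8 (top), and Aldh1a1 beside Amh, a gene of testis supporting cells (bottom). Crabp2 and Stra8 are both high in E12.5 female Rnf2delta and E13.5 female controls, while E11.5 female Rnf2delta has higher Crabp2 than its controls with Stra8 near 2.2.

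A direct test of a difference in genotype effect, between the sexes or the stages, was passed by no member (limma, 0 of 10 in each of 4 interaction contrasts). In all genes tested, 0.00659%, 0.0132%, 0.0264% and 0% were called in those 4 contrasts. In E12.5 females relative to E12.5 males, the effect on Crabp2 was 2.09 ± 0.49 larger (unadjusted p = 0.000198, adjusted p = 0.148). That on Aldh1a2 was 1.27 smaller (-1.27 ± 0.43, unadjusted p = 0.00586, adjusted p = 0.377), and that on Crabp1 0.94 smaller (-0.94 ± 0.40, unadjusted p = 0.0253, adjusted p = 0.493). In females at E12.5 relative to E11.5, the effect on Aldh1a2 was 1.66 smaller (-1.66 ± 0.42, unadjusted p = 0.000433, adjusted p = 0.231) and that on Crabp2 1.63 ± 0.48 larger (unadjusted p = 0.00197, adjusted p = 0.35). These were 3 and 2 members at an unadjusted p below 0.05, against 0 and 0 in the other 2 contrasts (E11.5 females relative to males, and males at E12.5 relative to E11.5). With equal weights, 1 member passed, Crabp2 between the sexes at E12.5 (adjusted p = 0.0147).

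Among normal germ cells, both binding proteins differed between the sexes by E13.5. At E11.5 Crabp1 differed by 0.19 between control females and males (95% interval from -0.25 to 0.63, adjusted p = 0.817), and 0 members were called, where 0.58% of genes were (Crabp2 alone had an unadjusted p below 0.05, and 0 were called with equal weights). At E12.5 Crabp1 was 7.05, 6.99 and 6.40 in control females, against 5.59, 6.02 and 4.79 in control males, a difference of 1.34 ± 0.29 (2.54-fold, adjusted p = 0.00228). With group weights it was the only member called at that stage, where 2.07% of genes were called higher in females. Equal weights also called Aldh1a1, as lower in females. A limma fit of the compared groups only called Aldh1a1 and also Crabp2 (0.66 higher in females, adjusted p = 0.0395). Aldh1a1 passed the filter on low values only through male arrays, so its calls are not used as a test. At E13.5 Crabp1 was 7.31, 7.51 and 7.28 in females, against 5.23, 5.44 and 5.98 in males (1.82 ± 0.21, 3.53-fold, adjusted p = 1.5e-07).

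At E13.5 Crabp2 was 6.37, 6.45 and 5.98 in control females, against 3.87, 4.75 and 3.91 in control males. The sexes did not overlap and differed by 2.09 ± 0.26 (4.26-fold, adjusted p = 4.58e-07). Crabp1 and Crabp2 were thus 2 members called higher in females at E13.5, where 11% of all genes were called higher. In Rnf2delta cells at E12.5, Crabp2 was 2.75 ± 0.34 higher in females than in males (6.72-fold, adjusted p = 3.65e-06), where 3.76% of genes were called higher. In Rnf2delta cells at E11.5 no member was called between the sexes, where 0.817% of genes were. Crabp2 differed there by 0.91 (adjusted p = 0.091). In limma 3 members had an unadjusted p below 0.05: Aldh1a2, Crabp2 and Aldh1a1, the last not used as a test. The sex, stage and genotype comparisons share arrays, so their values are not independent of each other. In control males Crabp1 was 0.76 lower at E12.5 than at E11.5 (-0.76 ± 0.21, adjusted p = 0.0216), with overlapping arrays. That call held in 10 of 15 alternatives, and 4.51% of genes were called lower. It was lost without E12.5 replicate 3 (-0.42, adjusted p = 0.184), E11.5 replicate 1 (-0.68, 0.0728) or E11.5 replicate 3 (-0.72, 0.0818).

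Aldh1a1 encodes a retinaldehyde dehydrogenase that is known from Sertoli cells of the testis. It was above its array's 40th percentile on 9 arrays, all of males, and female arrays reached at most the 33.3rd percentile. At E13.5 it was 1.68, 1.66 and 1.95 in control females, against 3.51, 2.39 and 3.25 in control males. The sexes did not overlap, and the means differed by -1.29; this is given as a description, with no test, because Aldh1a1 passed the filter on low values only through male arrays. Amh, the hormone gene of Sertoli cells, was 2.30, 2.32 and 2.44 in the same females, against 3.46, 2.24 and 3.83 in the same males, and male replicate 2 was the lowest male array for both genes. Of 12 listed supporting cell markers, Amh was the only marker called between these groups (limma, lower in females). The median female minus male difference of the 12 was -0.17, and 2 were positive. Of all 42 markers of other cell types, 3 were called higher in females and 3 lower, where 22.5% of all genes were called. The 12 supporting cell markers summed to 30.4 to 32.8 (log2) per array in E13.5 females, against 32.7 to 35.5 in E13.5 males. These sums include Amh, so they are not separate from its difference and do not measure the amount of supporting cell RNA. No marker can be said to be at 0 on these arrays, since the lowest log2 signals are background, but Sox9 and Foxl2 lay between 2.05 and 2.85 on the 6 E13.5 arrays, near the array medians of 2.52 to 2.66. The part of somatic RNA in the Aldh1a1 difference was not tested.

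By genotype, Aldh1a1 had no call. The average difference was -0.12 (95% interval from -0.44 to 0.19, adjusted p = 0.709), and the single differences ran from -0.45 in E12.5 males to 0.079 in E12.5 females. Female arrays reached at most the 33.3rd percentile, so the values of the female pairs say little about a difference in females.

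Of the receptors, Rara and Rarg were the ones with signal above the array median on every array. Rara ranged from 3.44 to 4.60 over the 30 arrays and Rarg from 2.81 to 3.93. The average genotype difference was 0.14 for Rara (95% interval from -0.052 to 0.33, adjusted p = 0.428) and -0.045 for Rarg (95% interval from -0.24 to 0.15, adjusted p = 0.848). Their group means spanned 0.69 for Rara, from 3.64 in E11.5 female controls to 4.33 in E13.5 male controls, and 0.73 for Rarg, from 2.88 in E13.5 male controls to 3.61 in E11.5 female controls. Neighbours in either order overlapped, apart from the last step of Rarg down to E13.5 males. In control males no member was called at E13.5 over E12.5, where 2.6% of genes were, although 3 had an unadjusted p below 0.05 (Aldh1a2, Crabp2 and Rara). In the 6 stage comparisons neither receptor passed: Rara was 0.38 higher at E13.5 than at E12.5 in control males (95% interval from 0.063 to 0.70, adjusted p = 0.235), and Rarg was -0.45 at E12.5 over E11.5 in control females (95% interval from -0.91 to 0.017, adjusted p = 0.238).

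Rarb, the receptor gene that is itself a textbook retinoic acid target through the repeat printed above, stayed between 1.87 and 2.47, under the median of every array (22.7th to 46.3rd percentile). The average genotype difference was 0.14 ± 0.066, with an unadjusted p of 0.0439 and an adjusted p of 0.211. Each of the 4 differences was between 0.051 and 0.17, and the arrays of the genotypes overlapped in all but the E12.5 males.

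**Figure D4:**
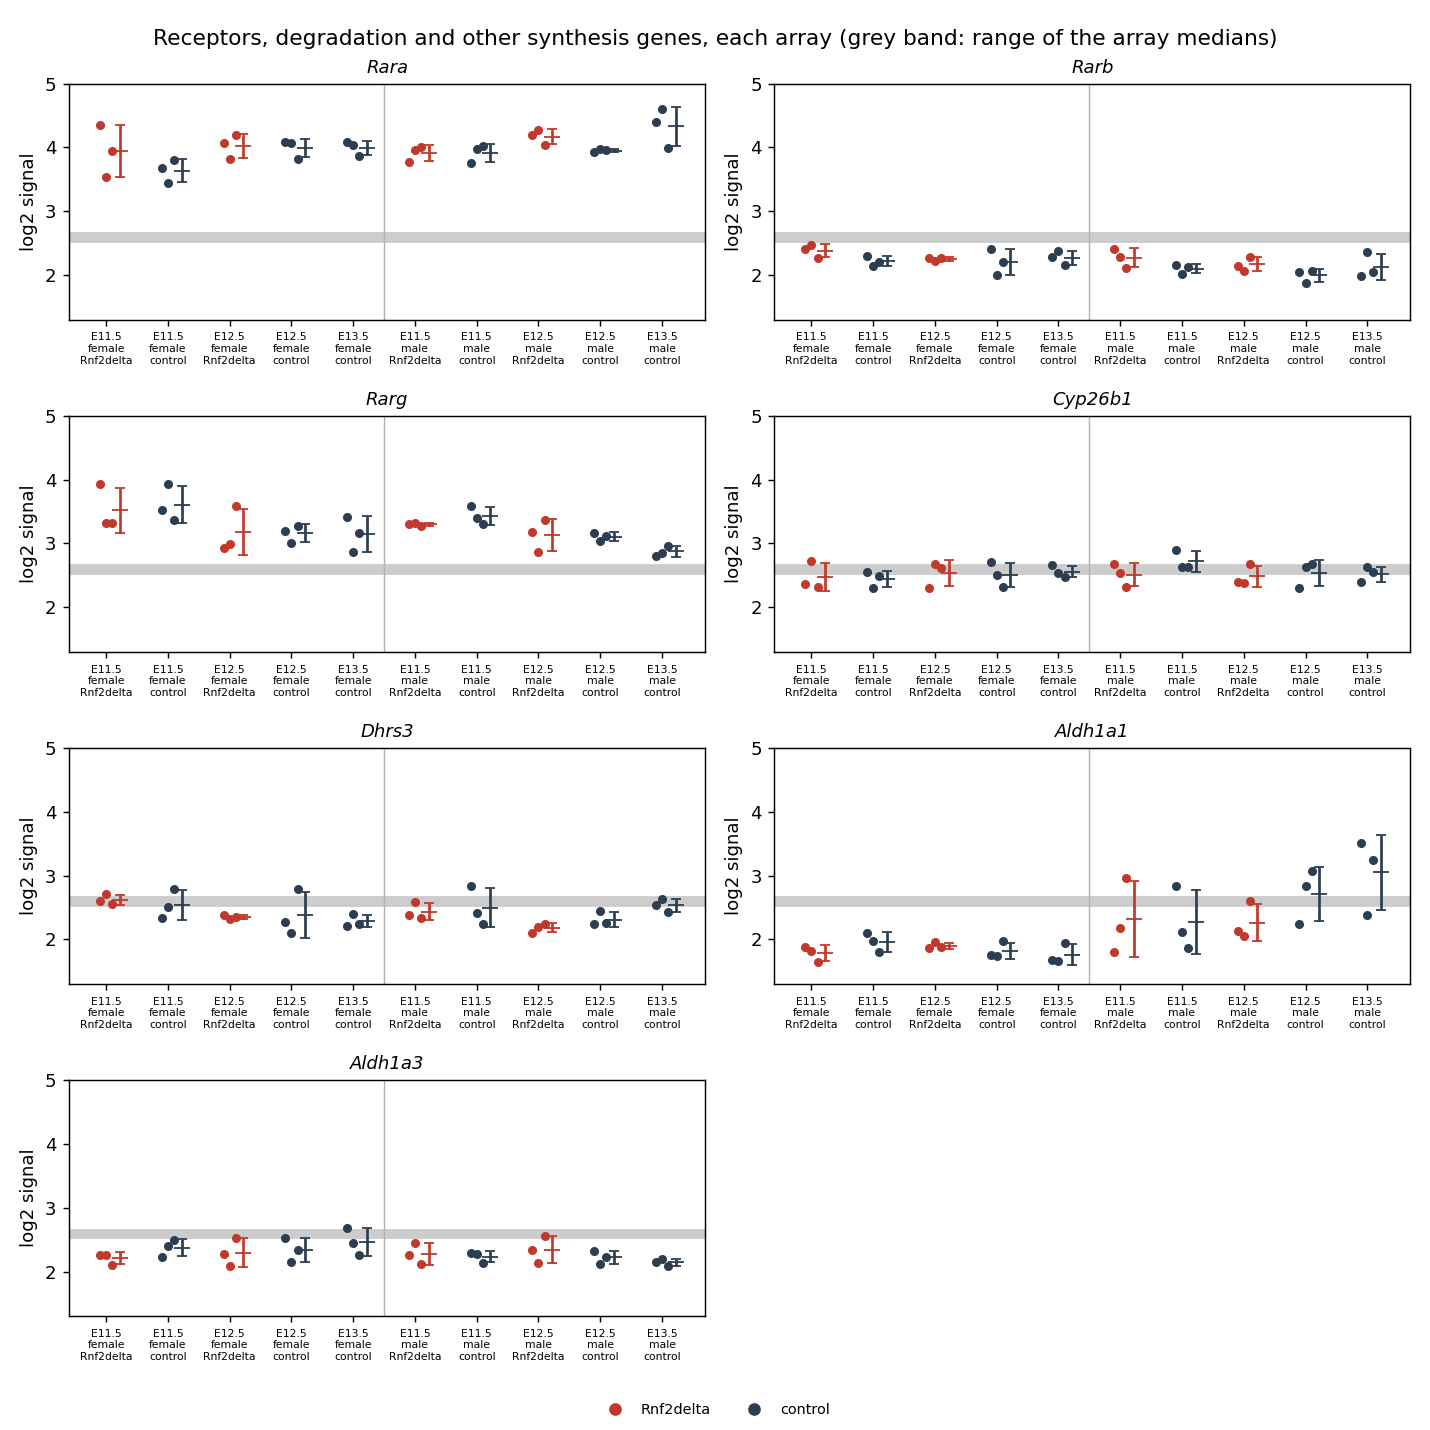
Log2 signal of the 7 other members on each array, with group mean and SD, females left and males right; the grey band is the range of the array medians. Rara and Rarg lie above the band, Aldh1a1 enters or passes it in males, Rarb lies under it, and Cyp26b1, Dhrs3 and Aldh1a3 lie around it, with single arrays up to 2.90, 2.84 and 2.69.

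Cyp26b1, Dhrs3 and Aldh1a3 lay around the array median. Cyp26b1 lay between 2.30 and 2.90 (39.8th to 57.2nd percentile) and was at 2.39 to 2.66 on the 6 E13.5 arrays, with a female minus male difference of 0.04 (95% interval from -0.23 to 0.31). Its average genotype difference was -0.055 (95% interval from -0.21 to 0.11). Dhrs3, a target and brake of the pathway, lay between 2.09 and 2.84 with an average genotype difference of -0.037 (95% interval from -0.20 to 0.13). Aldh1a3 lay between 2.09 and 2.69 and differed by -0.012 (95% interval from -0.16 to 0.14). At E13.5 its control females were all above the control males, at 2.25 to 2.69 against 2.09 to 2.20, and the difference of 0.32 did not pass the test (adjusted p = 0.0592). All 10 members passed the filter on low values; Aldh1a1 did so through male arrays, and Rarb with 10 arrays.

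Of 21 listed genes of retinoid uptake, storage, binding and oxidation, 16 were tested. In single genotype comparisons 1 was called, Rbp4, a retinol carrier, in E11.5 males (0.63 ± 0.15, adjusted p = 0.022, with overlapping arrays, and not called with equal weights). Of all genes tested, 1.65% were called higher there. In limma the unadjusted p was below 0.05 for 0 of the 16 in E11.5 females, 5 in E11.5 males, 3 in E12.5 females and 4 in E12.5 males. With equal weights 3 others were called, in E12.5 females: Rdh10 (0.52, adjusted p = 0.0275), Rdh13 (-0.96, 0.00299) and Rdh14 (0.74, 0.0313), of which none passed with group weights (adjusted p of 0.265, 0.0585 and 0.291). Averaged over the 4 pairs, 2 were higher, Rbp4 by 0.44 ± 0.092 (adjusted p = 0.00156) and Fabp5, a fatty acid and retinoic acid binding protein, by 0.45 ± 0.14 (adjusted p = 0.046). One was lower, Rdh13, a retinol dehydrogenase family gene (-0.41 ± 0.10, adjusted p = 0.00612). Of all genes tested, 7.46% were called higher and 1.8% lower in that average. The median of the list was -0.057, against 0.012 for all genes. Cyp26a1, the other main degrading enzyme of the embryo, did not pass the filter, with signals between 1.60 and 2.11.

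Of 13 listed retinoid X receptor and cofactor genes, 10 were tested. Rxra, the common partner of the RARs, was 3.57, 3.90 and 3.65 in E12.5 male Rnf2delta, against 3.01, 2.71 and 3.09 in controls (0.77 ± 0.19, adjusted p = 0.0331, not called with equal weights). It was the only one of the 10 called in a single genotype comparison with group weights, while equal weights called Med1 alone, in E12.5 females (0.51, adjusted p = 0.0149, against 0.136 with group weights). The Rxra arrays were also without overlap in E11.5 females, where Rnf2delta arrays lay at 3.35 to 3.96, against 2.92 to 3.08 in controls (limma, adjusted p = 0.0568). They did not overlap in E11.5 males either (adjusted p = 0.0835). In E12.5 females the arrays overlapped (adjusted p = 0.833). Averaged, 3 genes were higher: Rxra by 0.55 ± 0.10 (adjusted p = 0.000411), and the coactivator genes Ncoa1 by 0.28 ± 0.076 (adjusted p = 0.0159) and Med1 by 0.26 ± 0.063 (adjusted p = 0.00688). Of all genes tested, 7.46% were called higher in that average, and 1.02% in E12.5 males alone. The median of the list was 0.099. The unadjusted p (limma) was below 0.05 for 3 of the 10 in E11.5 females, 2 in E11.5 males, 2 in E12.5 females and 2 in E12.5 males.

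Of 15 listed retinoic acid responsive genes, 12 were tested. In E12.5 females 2 rose, Stra8 and Rec8, and in the other 3 comparisons none passed; the unadjusted p was below 0.05 for 2 of the 12 in E11.5 females, 1 in E11.5 males and 2 in E12.5 males, and with equal weights none was called in these 3. Of all genes tested, 1.35% were called higher in E12.5 females, and 0.922% to 1.65% in the other 3 comparisons. Averaged over the 4 pairs, 4 of the list were higher and 0 lower, where 7.46% and 1.8% of all genes were. They were Stra8 (0.77 ± 0.17, adjusted p = 0.00301), Rec8 (0.77 ± 0.12, adjusted p = 3.28e-05), Meis1 (0.28 ± 0.081, adjusted p = 0.0234) and Meis2 (0.31 ± 0.097, adjusted p = 0.039), homeobox genes of which retinoic acid is a known inducer. The average for Stra8 came mainly from E12.5 females, with means of 5.59 in Rnf2delta and 2.79 in controls. Its means were 2.18 and 2.11 in E11.5 females, 2.26 and 2.04 in E11.5 males, and 2.21 and 2.23 in E12.5 males. The median of the list was 0.092. Rec8 was separate between the genotypes in all 4 pairs, with differences of 0.60 in E11.5 females (adjusted p = 0.198), 0.30 in E11.5 males (adjusted p = 0.595) and 0.60 in E12.5 males (adjusted p = 0.267).

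Rdh10, the main retinol dehydrogenase of the embryo, rose in normal females: it was 5.19, 5.22 and 5.07 at E13.5, against 3.72, 3.95 and 4.11 at E12.5 (1.23 ± 0.19, adjusted p = 4.86e-05). At E13.5 it was 0.86 ± 0.13 higher in control females than in control males (adjusted p = 1.74e-05), and in Rnf2delta females it was 0.78 ± 0.17 higher at E12.5 than at E11.5 (adjusted p = 0.00148). By genotype Rdh10 had no call with group weights, though equal weights called it in E12.5 females, and its differences ran from -0.31 in E11.5 males to 0.52 in E12.5 females (adjusted p = 0.314 and 0.265).

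The genes whose signals followed the 3 changed members most closely were named by Pearson correlation over the 30 arrays, a description in which all points share the arrays and the 10 groups. For Aldh1a2 they were Fkbp11 (r = 0.808), Bcor (0.785), a gene of a variant PRC1, and Klk8 (0.780). For Crabp1 they were Ddah1 (0.887), Plaat3 (0.863) and Gstp1 (0.843), and Ddah1 lay at 4.84 to 5.67 on the 12 Rnf2delta arrays, against 2.96 to 4.90 on the 18 control arrays. For Crabp2 they were Fam120c (0.879), Dmxl1 (0.867) and Meioc (0.863), a meiotic gene. Over the 24 arrays without the E12.5 females, these correlations were between 0.776 and 0.916. For Aldh1a1, chosen after its values were seen, they were Defb19 (0.852), Ptgds (0.850) and Cst9 (0.840). Among the members themselves, Crabp1 correlated with Crabp2 at 0.634 and with Aldh1a2 at 0.598, and Aldh1a2 with Crabp2 at 0.138.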

How the data were processed

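The authors deposited log2 signals for 34760 probe sets on 30 arrays, which were already normalized: array medians lay between 2.52 and 2.66. The submitters' processing notes name R 2.15 and affy 1.36; background correction and probe summary (not given in the sources used here) are unknown, and the log base was inferred from the range of values. Probe sets were named from the platform annotation, with symbols updated through RefSeq (GRCm38.p6); 21640 had 1 symbol. The probe set with the highest mean stood for a gene.

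Genes with signal over an array-specific 40th percentile (2.20 to 2.40) on 3 or more arrays were tested, 15180 of 19937. In limma 3.58.1 (R 4.3.3), a single model of the 30 arrays had 1 mean per group and a weight per group (0.595 for E12.5 female Rnf2delta arrays and 0.444 for their controls, 0.890 to 1.37 elsewhere), with 20 residual degrees of freedom. Two-sided moderated tests were adjusted by Benjamini-Hochberg over all 15180 genes, threshold 0.05, in 20 comparisons. The script was tested on simulated data. The number of arrays limits the precision. No scan batch could be tested, since scan dates were not used here.

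Named genes are the 10 members, Rnf2, up to 4 called genes per pathway list and comparison, the 3 genes most correlated with each member called by genotype, and markers moving with a result. The members and lists were chosen with earlier results of these data known. Same-numbered arrays of both genotypes met the rule used for deviating together (each correlation over 0.1) only in E11.5 males (0.160, 0.124 and 0.104). In E12.5 males the values were 0.184, 0.096 and 0.293, of which 0.096 fell just under that cut. They were 0.093, 0.059 and 0.079 in E12.5 females, and 0.147, -0.064 and -0.140 in E11.5 females. The rule thus separates E11.5 from E12.5 males by a narrow margin. The replicate numbers come from the sample titles.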

Additional observations from a re-analysis of the deposited data

How the results depend on the processing

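No called result changed direction in an alternative; some uncalled members with differences near 0 changed sign. Over all single members, comparisons and alternatives, 26 calls were lost and 11 gained. Alternatives were equal weights, a weight per array, the compared groups only, quantile normalization, no filter, a stricter filter, the mean of probe sets, a replicate block, omission of the E12.5 female arrays and of single arrays. Equal weights gave 2 called members in E12.5 females (1 with group weights) and 1 in the interactions (0 with group weights). They lost Crabp2 in E11.5 males (adjusted p = 0.161; 2 called members, 3 with group weights) and Crabp1 in control males at E12.5 over E11.5 (0.0697). Leaving out 1 array at a time gave 2 to 3 called members in E11.5 females, 2 to 3 in E11.5 males, 1 in E12.5 females, 1 to 3 in E12.5 males, 3 for the mean of 4, 3 to 4 over the stage comparisons, 5 to 7 over the sex comparisons (a count that includes Aldh1a1 at E13.5, which passed the filter through male arrays) and 0 in the interactions. The count of 1 in E12.5 males was without Rnf2delta replicate 1. With the replicate number as a block, 3, 3, 1 and 2 members were called in the 4 genotype comparisons, as without it. Crabp2 in E11.5 males, where same-numbered arrays met the rule above, had an adjusted p of 0.0464 with that block (limma). A block within stage and sex, chosen after seeing the data, also gave 3, 3, 1 and 2. The block changed no call of a member. Signal over background limits Rarb, Cyp26b1, Dhrs3, Aldh1a3 and, in females, Aldh1a1, whose levels lay near or under the array median.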
